A study of Mus musculus with 30 samples.

Results

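Camp, Ngp, Ltf, S100a8, S100a9, Mmp8 and Mmp9 are the neutrophil granule and calprotectin genes described here, in whole mouse lung after inhaled lipopolysaccharide (LPS, a cell wall component of Gram-negative bacteria), mechanical ventilation (MV) or both. The members were the probe sets whose platform gene symbol is 1 of these 7 names, which gave 8 of the 45037 probe sets on the array and 7 of the 18193 named genes. Mmp9 had 2 probe sets and each of the other genes had 1. All 8 probe sets passed the filter on low values, among 13089 genes tested.

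The 30 arrays each measured the lung of 1 C57BL/6 mouse, aged either 21 days (juvenile) or 16 weeks (adult). LPS+MV mice (4 adults, 3 juveniles) inhaled nebulized E. coli LPS (20 mL of a 0.1 mg/mL solution, over 30 minutes) and were ventilated directly afterwards for 2 hours. LPS mice (4 adults, 4 juveniles) received the same aerosol and then breathed on their own for 2 hours. MV mice (4 adults, 3 juveniles) were ventilated for 2 hours at 15 mL/kg tidal volume, 2 cm H2O end-expiratory pressure and 30% oxygen. LPS+MV mice had the same ventilator settings. Controls (4 adults, 4 juveniles) were untreated, age-matched and breathing spontaneously, so the effects of ventilator settings and of everything else done to a ventilated animal cannot be told apart. No group inhaled an aerosol without LPS, so the effects of LPS and of the aerosol procedure cannot be told apart either.

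Neutrophils fill their granules in a fixed order while they mature in bone marrow. Azurophil granules with myeloperoxidase and elastase come first, specific granules with lactoferrin and cathelicidin next, and gelatinase granules last, and the transcripts of most granule proteins are largely shut down before the cell enters blood. Camp encodes the cathelicidin precursor, from which an antimicrobial peptide is cut. Ngp encodes neutrophilic granule protein, a relative of cathelicidins and cystatins. Ltf encodes lactoferrin, an iron-binding protein that glandular and airway epithelium also secretes. S100a8 and S100a9 encode the subunits of calprotectin, a cytosolic protein that binds calcium and zinc, stays highly expressed in mature neutrophils and monocytes, and acts outside the cell as a ligand of TLR4 and of the receptor RAGE. Mmp8 encodes neutrophil collagenase and Mmp9 encodes gelatinase B, proteases that cut matrix proteins.

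The members lie on chromosomes 2, 3 and 9. In the RefSeq annotation of GRCm38.p6, Camp (chr9:109847377-109849456), Ngp (chr9:110419808-110423012) and Ltf (chr9:111019292-111042766) lie near each other on chromosome 9, Mmp8 (chr9:7558429-7568486) lies far from them on the same chromosome, S100a8 (chr3:90669071-90670034) and S100a9 (chr3:90692630-90695721) are close neighbours, and Mmp9 is at chr2:164940326-164955850. The promoters of a pair whose levels moved together in juvenile lungs, Ngp and Camp, and of the calprotectin pair follow, each from 250 bases before to 50 after the annotated start, from RefSeq on GRCm38.p6. Capitals mark matches, on either strand, to 4 motifs: C/EBP as TTGCNNAA, NF-kB as GGGA, any 4 bases and CC, PU.1 as GAGGAA and the TATA box as TATAAA.
Ngp, chr9:110419558-110419857, plus strand: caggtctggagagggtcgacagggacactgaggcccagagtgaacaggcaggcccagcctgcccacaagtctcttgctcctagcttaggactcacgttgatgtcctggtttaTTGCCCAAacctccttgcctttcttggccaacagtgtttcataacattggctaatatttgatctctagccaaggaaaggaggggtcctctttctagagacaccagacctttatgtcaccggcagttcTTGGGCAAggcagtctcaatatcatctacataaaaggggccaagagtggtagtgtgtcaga
Camp, chr9:109849407-109849706, minus strand: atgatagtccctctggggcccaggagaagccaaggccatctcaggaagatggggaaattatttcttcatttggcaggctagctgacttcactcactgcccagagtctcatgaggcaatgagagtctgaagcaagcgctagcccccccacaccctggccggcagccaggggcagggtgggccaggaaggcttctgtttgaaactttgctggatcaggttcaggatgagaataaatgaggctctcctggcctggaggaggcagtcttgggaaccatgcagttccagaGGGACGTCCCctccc
S100a8, chr3:90668821-90669120, plus strand: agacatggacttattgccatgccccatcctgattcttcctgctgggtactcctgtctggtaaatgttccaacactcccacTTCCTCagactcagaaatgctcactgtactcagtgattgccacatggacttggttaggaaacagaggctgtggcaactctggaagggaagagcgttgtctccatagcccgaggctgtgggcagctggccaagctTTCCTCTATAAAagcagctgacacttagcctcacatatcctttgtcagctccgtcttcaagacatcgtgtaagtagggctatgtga
S100a9, chr3:90695672-90695971, minus strand: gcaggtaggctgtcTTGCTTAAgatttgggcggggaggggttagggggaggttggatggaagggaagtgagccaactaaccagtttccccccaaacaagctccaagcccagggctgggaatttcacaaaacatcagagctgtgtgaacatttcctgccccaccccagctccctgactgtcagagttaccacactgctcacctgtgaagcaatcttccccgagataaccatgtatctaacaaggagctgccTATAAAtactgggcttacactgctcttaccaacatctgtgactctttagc

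The Ngp window held 2 C/EBP matches, starting 138 and 11 bases before the annotated start. The Camp window held no C/EBP match and 1 NF-kB match, GGGACGTCCC, which reads the same on both strands and begins 35 bases after the start. The S100a8 window held 2 PU.1 matches, of which the one nearer the start touches a TATA box 30 bases before it. The S100a9 window held a C/EBP match 236 bases before the start and a TATA box at the start itself. Of the windows not shown, Ltf held 1 C/EBP and 1 PU.1 match, and Mmp8 held 1 match each to C/EBP, PU.1 and the TATA box. Over 32851 promoter windows of the same length, 10.8% held the C/EBP letters, 20.7% the NF-kB letters, 28.3% the PU.1 letters and 13.6% the TATA letters. A match is a description of the letters and not of a bound site.

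The arrays were alike as a whole: medians were 21.6 to 22.8 intensity units and upper quartiles 89.1 to 111. Each array correlated with the others of its group at r of at least 0.9737 across the 13089 genes tested. Some arrays stood apart in the members. Adult control replicate 4 was the highest of its group in 7 of the 7 genes and replicate 2 the lowest in 6. Adult LPS replicate 1 was the highest of its group in 7, and juvenile control replicate 4 in 6. Arrays with high Xist, an RNA of the inactive X chromosome, numbered 3 of 4 in adult LPS+MV, 0 of 4 in adult LPS, 4 of 4 in adult MV and 0 of 4 in adult controls, and 2 of 3, 0 of 4, 1 of 3 and 1 of 4 in the same groups of juveniles. The labels give no sex. In adults the arrays with high Xist were ventilated ones, so a difference tied to Xist and one tied to ventilation are hard to separate there.

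Values below are probe set intensities, and differences are log2 fold changes ± SE of a limma fit over all 30 arrays on log2(intensity + 32), which understates changes of dim probe sets. A gene passed at a Benjamini-Hochberg adjusted p under 0.05 over all 13089 genes. The number of animals, 3 or 4 per group, limits the precision. In whole lung RNA, more cells of a type and more RNA per cell cannot be told apart.

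**Figure D1:**
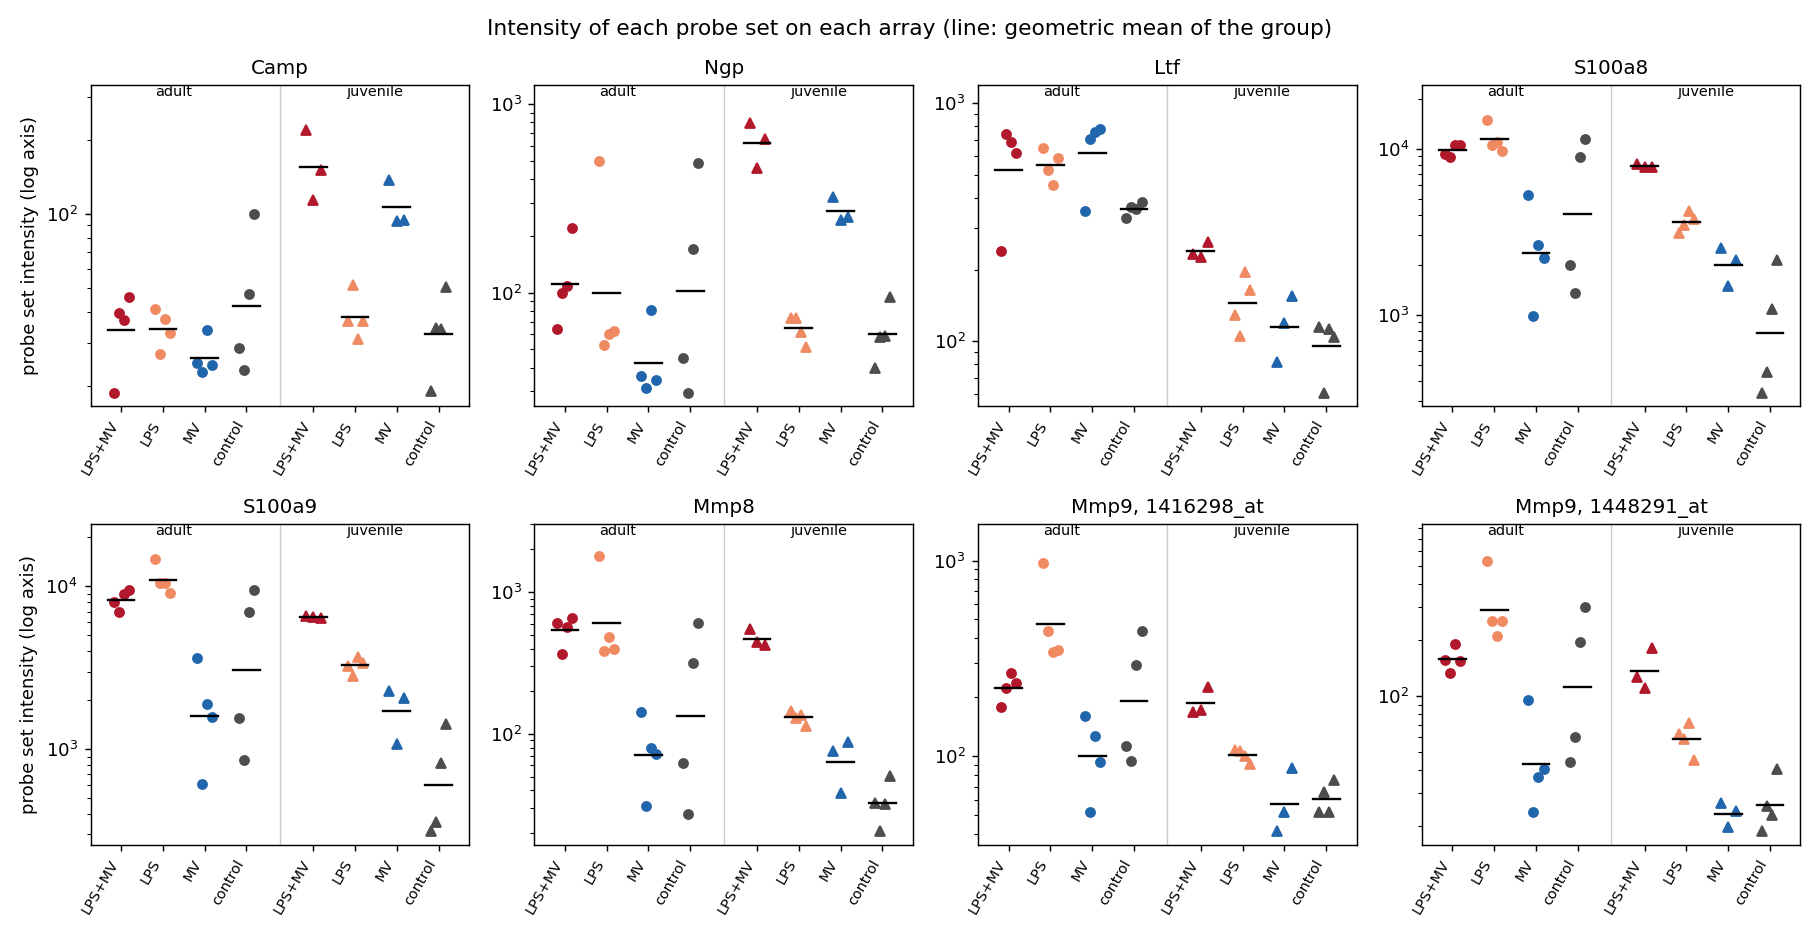
Intensity of the 8 probe sets (log axis) on each of the 30 arrays, by age and treatment, with circles for adults, triangles for juveniles and a line at each group's geometric mean. Camp and Ngp are high in juvenile LPS+MV and MV lungs, whereas S100a8 and S100a9 are high in the LPS+MV and LPS lungs of adults and in the juvenile LPS+MV lungs, and adult controls spread widely.

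Camp and Ngp, the specific granule genes of the cathelicidin group, rose in juvenile lungs that were ventilated, with or without LPS, and passed in no adult treatment group. Camp read 220.0, 114 and 151 in juvenile LPS+MV lungs, 36.8, 51.4, 31.0 and 36.7 in LPS lungs, 137, 93.4 and 94.6 in MV lungs and 19.1, 34.3, 34.2 and 50.3 in controls. Every ventilated juvenile lay above every juvenile LPS and control lung. Camp was higher than in controls by 1.53 ± 0.21 (adjusted p = 3.63e-06) with LPS+MV and by 1.08 ± 0.21 (adjusted p = 0.00206) with MV, and both calls stayed with any single array left out. Its LPS value of 0.11 ± 0.20 did not pass (adjusted p = 0.754). LPS+MV exceeded LPS by 1.42 ± 0.21 (adjusted p = 5.85e-05).

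Ngp read 793, 459.7 and 654 in juvenile LPS+MV lungs, 73.6, 73.7, 62.0 and 51.7 in LPS lungs, 321, 243 and 252 in MV lungs and 39.9, 58.4, 58.8 and 95.0 in controls. The LPS+MV lungs were the highest, the MV lungs came next, and LPS and control lungs overlapped. The rise was 2.81 ± 0.54 (adjusted p = 0.000211) with LPS+MV and 1.70 ± 0.54 (adjusted p = 0.0392) with MV. The MV call was near the threshold and ended without any 1 of 6 arrays, the 3 MV arrays and control replicates 1 to 3 (adjusted p up to 0.121), and without the filter on low values (adjusted p = 0.0515). LPS alone gave 0.06 ± 0.50, which did not pass (adjusted p = 0.952), and LPS+MV exceeded LPS by 2.75 ± 0.54 (adjusted p = 0.000942). LPS+MV and MV did not overlap, and their difference of 1.11 ± 0.57 did not pass (adjusted p = 0.21).

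In adults neither gene passed in any comparison of treatments. Camp read 18.7, 39.7, 37.2 and 46.2 in LPS+MV lungs, 41.1, 27.0, 37.3 and 32.8 in LPS lungs, 24.7, 22.7, 33.8 and 24.3 in MV lungs and 28.7, 23.1, 47.3 and 100.4 in controls. Ngp read 64.3, 99.8, 108 and 219 in LPS+MV lungs, 499.5, 52.9, 60.4 and 62.7 in LPS lungs, 36.1, 31.3, 81.0 and 34.5 in MV lungs and 45.0, 29.5, 171 and 485 in controls. The groups overlapped, with LPS replicate 1 and control replicates 3 and 4 far above the other arrays of their groups for Ngp. The MV differences were -0.40 ± 0.20 for Camp (adjusted p = 0.123) and -0.99 ± 0.50 for Ngp (adjusted p = 0.133), and without control replicate 2 both passed as lower (-0.56, adjusted p = 0.0395, and -1.41, adjusted p = 0.0375). For LPS and LPS+MV the adult Ngp differences of -0.08 ± 0.50 and -0.04 ± 0.50 changed sign with single arrays left out.

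The change of these genes from controls to MV lungs and to LPS+MV lungs differed by age. In adults high Xist went with ventilation, so for both genes age differences tied to Xist and to ventilation are hard to separate. The adult minus juvenile difference between the MV effects was -1.49 ± 0.29 (adjusted p = 0.00382) for Camp and -2.68 ± 0.73 (adjusted p = 0.028) for Ngp. For the LPS+MV effects it was -1.74 ± 0.29 (adjusted p = 0.00301) and -2.85 ± 0.73 (adjusted p = 0.0373). The Camp calls stayed with any single array left out, at adjusted p of at most 0.0161 and 0.0114. The Ngp calls ended without any 1 of 5 arrays for MV (adult control replicates 3 and 4, juvenile MV replicates 1 and 2, juvenile control replicate 1) and of 10 arrays for LPS+MV, with values of -3.11 to -2.09 and -3.28 to -2.25. They also ended with the Xist pattern as a term (adjusted p = 0.152 and 0.0546). Directly compared, MV lungs of adults minus juveniles gave -1.26 ± 0.21 (adjusted p = 7.74e-05) for Camp and -2.001 ± 0.54 (adjusted p = 0.00708) for Ngp, and LPS+MV lungs gave -1.50 ± 0.21 (adjusted p = 1.96e-05) and -2.17 ± 0.54 (adjusted p = 0.007). No array of one age overlapped the other in these 4 cases, as for 18.2% of genes that were lower in adults after MV and 10.6% after LPS+MV. The Ngp difference after MV ended with the Xist term (adjusted p = 0.0542).

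S100a8 and S100a9, the calprotectin subunits, rose with LPS at both ages and with LPS+MV in juveniles, and S100a9 also rose with LPS+MV in adults. S100a8 read 8123, 7778 and 7701 in juvenile LPS+MV lungs, 3096, 3460.3, 4206 and 3780.5 in LPS lungs, 2505, 1490.4 and 2137 in MV lungs and 339, 452, 1080.0 and 2127 in controls. Among these 4 groups MV and control alone overlapped. Of all genes, 9.83% were higher without overlap for LPS+MV against LPS and 10.2% for LPS against control. No such share was computed for LPS against MV. S100a8 rose by 3.28 ± 0.56 (adjusted p = 6.27e-05) with LPS+MV, a 9.74-fold difference, and by 2.17 ± 0.52 (adjusted p = 0.00285) with LPS. The MV value of 1.33 ± 0.56 did not pass (adjusted p = 0.13), and it passed without control replicate 4, the highest control (1.80, adjusted p = 0.0342).

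S100a9 read 6592, 6467 and 6362 in juvenile LPS+MV lungs, 3239.8, 2821, 3699 and 3389 in LPS lungs, 2284, 1085 and 2064 in MV lungs and 314, 356, 826 and 1434 in controls. The order and the overlap were those of S100a8. S100a9 rose by 3.34 ± 0.58 (adjusted p = 7.13e-05) with LPS+MV, a 10.1-fold difference, and by 2.37 ± 0.54 (adjusted p = 0.00166) with LPS, against 1.45 ± 0.58 with MV, which did not pass (adjusted p = 0.106). LPS+MV did not overlap LPS in either gene, and the differences of 1.12 ± 0.56 for S100a8 (adjusted p = 0.194) and 0.98 ± 0.58 for S100a9 (adjusted p = 0.285) did not pass.

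In adults the controls held both low and high arrays. S100a8 read 9257, 8894, 10551 and 10562 in LPS+MV lungs, 14841, 10546, 11032 and 9726 in LPS lungs, 5264, 979, 2645 and 2191 in MV lungs and 1987, 1353, 8908 and 11365 in controls. S100a9 read 8058, 6923, 8981 and 9427 in LPS+MV lungs, 14801, 10414, 10446 and 9099 in LPS lungs, 3613, 609.9, 1903 and 1572 in MV lungs and 1564, 862, 6999.6 and 9471 in controls. Both LPS groups lay wholly above MV, while control replicates 3 and 4 lay in the range spanned by those groups and replicates 1 and 2 lay in that of MV. S100a8 rose by 1.47 ± 0.52 (adjusted p = 0.0279) with LPS, and the call ended without LPS replicate 1, control replicate 1 or control replicate 2 (0.95, adjusted p = 0.162 for the last). S100a9 rose by 1.82 ± 0.54 (adjusted p = 0.00916) with LPS and by 1.41 ± 0.54 (adjusted p = 0.0351) with LPS+MV. Without control replicate 2 those values were 1.22 (adjusted p = 0.0679) and 0.81 (adjusted p = 0.217), and the LPS+MV call also ended without control replicate 1 or LPS+MV replicate 1, 3 or 4. S100a8 with LPS+MV, at 1.26 ± 0.52, did not pass (adjusted p = 0.0535), and passed without control replicate 3 (1.63, adjusted p = 0.0181) or 4 (1.75, adjusted p = 0.0084).

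Calprotectin was also higher in adult than in juvenile controls, by 2.34 ± 0.52 (adjusted p = 0.00147) for S100a8 and 2.29 ± 0.54 (adjusted p = 0.00233) for S100a9, although the lowest adult controls lay below the highest juvenile ones. Adult LPS lungs exceeded juvenile LPS lungs by 1.65 ± 0.52 (adjusted p = 0.0291) and 1.74 ± 0.54 (adjusted p = 0.0249), without overlap. After LPS+MV adults were also above juveniles on every array, but the differences did not pass (adjusted p = 0.793 and 0.77). The LPS effects themselves were not shown to differ by age, at -0.69 ± 0.74 (adjusted p = 0.689) and -0.55 ± 0.76 (adjusted p = 0.78), adult minus juvenile.

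Mmp8, the collagenase, rose in LPS+MV lungs at both ages and in adult LPS lungs. Mmp8 read 552, 447 and 422 in juvenile LPS+MV lungs, 146, 129, 136 and 115 in LPS lungs, 75.8, 38.3 and 87.4 in MV lungs and 32.9, 20.7, 32.1 and 50.9 in controls. Only MV and control overlapped, and the shares of all genes without overlap are those given for S100a8. Mmp8 rose by 2.94 ± 0.53 (adjusted p = 0.000116) with LPS+MV, a 7.70-fold difference in intensity + 32. Mean intensities were 474 with LPS+MV and 34.1 in controls, so the added 32 makes this fold smaller than that of the readings. LPS alone gave 1.32 ± 0.49 (adjusted p = 0.0523), which passed with a pseudocount of 1 (1.98). LPS+MV exceeded LPS by 1.62 ± 0.53 (adjusted p = 0.0375), a call that ended without any 1 of the 7 arrays (adjusted p up to 0.106).

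In adults Mmp8 read 602, 368, 571 and 655 in LPS+MV lungs, 1798, 383, 482 and 397 in LPS lungs, 142, 31.1, 79.3 and 72.7 in MV lungs and 62.1, 27.3, 318 and 608 in controls. Every LPS+MV and LPS lung lay above every MV lung, and controls reached from below the MV range into the LPS+MV and LPS ranges. Mmp8 rose by 1.60 ± 0.49 (adjusted p = 0.01) with LPS+MV and by 1.77 ± 0.49 (adjusted p = 0.00607) with LPS. The LPS call stayed with any single array left out, while the LPS+MV call ended without control replicate 1 (1.27, adjusted p = 0.0514) or 2 (1.04, adjusted p = 0.0759).

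Mmp9, the gelatinase, was the only member with a lower level in adult LPS+MV than in adult LPS lungs on every array. Its brighter probe set read 179, 224, 266 and 237 in adult LPS+MV lungs, 975, 436, 341 and 351 in LPS lungs, 161, 51.9, 127 and 93.1 in MV lungs and 113, 94.2, 292 and 435 in controls. Mmp9 rose by 1.15 ± 0.31 (adjusted p = 0.00526) with LPS, and its LPS+MV level was not distinguished from controls. The difference between LPS+MV and LPS, -0.99 ± 0.31, fell just short over genes (adjusted p = 0.0533) and was -0.66 without LPS replicate 1, the highest array.

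In juveniles the same probe set read 169, 172 and 227 in LPS+MV lungs, 108, 107, 99.9 and 91.7 in LPS lungs, 41.3, 52.2 and 87.2 in MV lungs and 52.1, 65.3, 51.6 and 75.5 in controls. LPS+MV lay above LPS, and LPS above MV and control, with no overlap (shares of all genes as given for S100a8). Mmp9 rose by 1.25 ± 0.34 (adjusted p = 0.00605) with LPS+MV, and the LPS value of 0.53 ± 0.31 did not pass (adjusted p = 0.249). The second probe set correlated with the first at r = 0.972 (Spearman rho = 0.954) over the 30 arrays. In a fit over 24825 probe sets, where the first probe set passed for adult LPS+MV against LPS (adjusted p = 0.0475), the second gave 1.53 ± 0.34 (adjusted p = 0.00122) for juvenile LPS+MV, 1.10 ± 0.31 (adjusted p = 0.00871) for adult LPS and -0.77 ± 0.31 (adjusted p = 0.128) for adult LPS+MV against LPS. There it also passed as lower in adult MV than in controls (-0.97 ± 0.31, adjusted p = 0.0221), which the first probe set did not (adjusted p = 0.0653).

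Ltf, lactoferrin, was higher in adults than in juveniles in each treatment group and in controls. Ltf read 240.4, 741, 687 and 619 in adult LPS+MV lungs, 649, 527, 452 and 588 in LPS lungs, 352, 711, 758 and 779.6 in MV lungs and 328, 366, 359.8 and 384 in controls. In juveniles it read 232, 226 and 262 in LPS+MV lungs, 129, 105, 196 and 163 in LPS lungs, 82.0, 119 and 155 in MV lungs and 115, 60.6, 113 and 104 in controls. Every adult control exceeded every juvenile lung of any treatment. The adult excess was 1.61 ± 0.25 (adjusted p = 3.02e-05) in controls, 2.15 ± 0.27 (adjusted p = 1.34e-06) after MV, 1.72 ± 0.25 (adjusted p = 2.37e-05) after LPS and 1.05 ± 0.27 (adjusted p = 0.0103) after LPS+MV.

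With treatment, Ltf rose in juvenile LPS+MV lungs (1.08 ± 0.27, adjusted p = 0.00308), which lay above all other juveniles. In adults it rose with MV (0.74 ± 0.25, adjusted p = 0.0253), a call that ended without MV replicate 2, 3 or 4 or control replicate 1 (adjusted p up to 0.0855) and with the Xist pattern as a term (0.62, adjusted p = 0.231). The adult LPS lungs all lay above the controls, and their difference of 0.57 ± 0.25 did not pass (adjusted p = 0.0773). Adult LPS+MV, at 0.52 ± 0.25, passed only without LPS+MV replicate 1, whose reading of 240.4 was below every adult control (0.87, adjusted p = 0.00184).

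**Figure D2:**
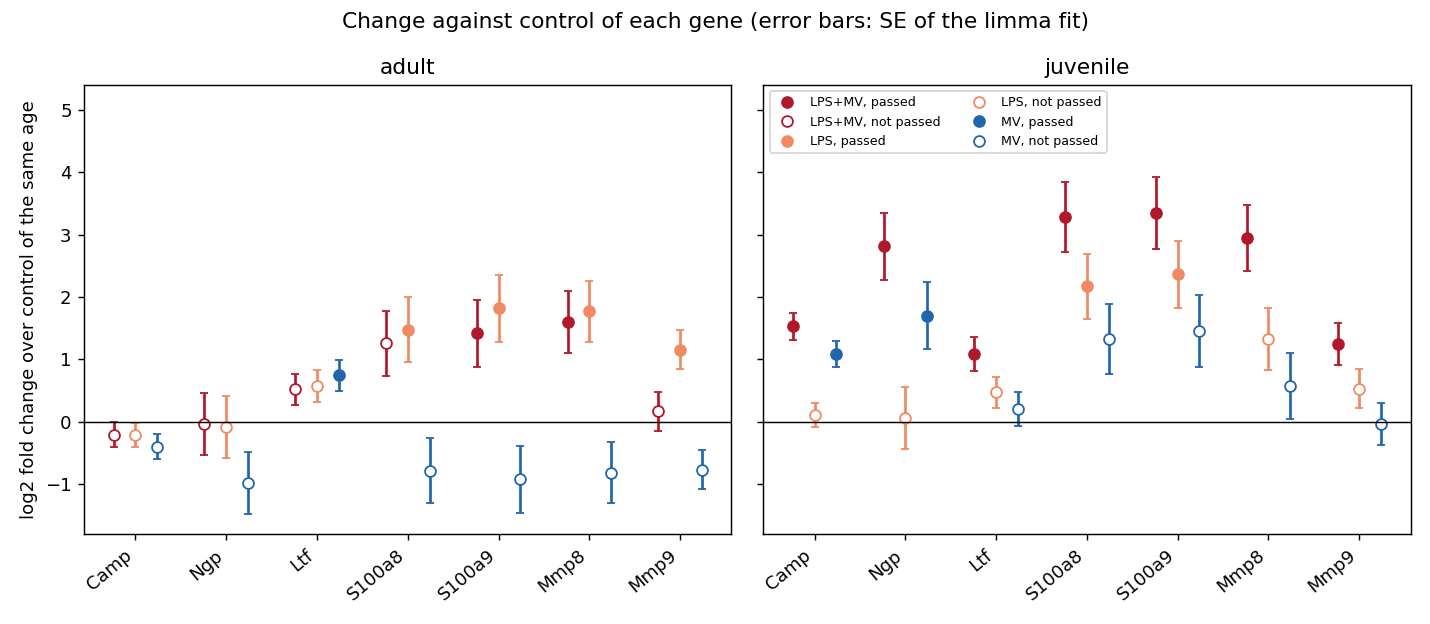
Log2 fold change of each gene over controls of the same age (points, error bars ± SE of the limma fit, filled where adjusted p is under 0.05), for adults and juveniles. In juveniles all 7 LPS+MV points are filled and MV passes for Camp and Ngp alone, while in adults the Camp and Ngp points lie below 0 and are open in every treatment.

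In juvenile LPS+MV lungs all 7 members rose against controls and none overlapped them, where 10.8% of all genes passed as higher and 11.7% were higher without overlap. The median member difference was 2.81, against -0.052 over all genes, and the count was 7 with any single array left out and under each of the other settings. With juvenile LPS 2 members rose (S100a8 and S100a9), with 9.58% of genes passing as higher, and 4 did not overlap (10.2% of genes). With juvenile MV 2 rose (Camp and Ngp), with 4.41% of genes passing as higher, and these 2 did not overlap (7.95% of genes). That count was 1 without any 1 of the 3 MV arrays or control replicates 1 to 3, and 4 without control replicate 4.

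Against the single treatments, juvenile LPS+MV exceeded LPS in 3 members that passed (Camp, Ngp and Mmp8), with 5.97% of genes passing as higher. All 7 were higher without overlap, as were 9.83% of genes. It exceeded MV in 5 (Ltf, S100a8, S100a9, Mmp8 and Mmp9), with 6.93% of genes passing as higher, and 6 did not overlap (11.5% of genes). That count was 1 or 2 without MV replicate 1 or 2 or any 1 of the LPS+MV replicates, where Mmp8 alone always passed. The sizes against MV were 2.38 ± 0.57 for Mmp8, 1.96 ± 0.60 for S100a8 and 1.89 ± 0.62 for S100a9. No member passed the LPS by MV interaction in juveniles (0.749% of genes did), at values of 1.06 ± 0.76 for Ngp and 1.06 ± 0.75 for Mmp8.

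In adults, 4 members rose with LPS (S100a8, S100a9, Mmp8 and Mmp9), with 12.9% of genes passing as higher, and Ltf was higher without overlap (13% of genes). The count was 2 without control replicate 2. With LPS+MV 2 rose (S100a9 and Mmp8), with 14.8% of genes passing as higher, and the count was 0 without control replicate 1 or 2, 1 without LPS+MV replicate 3 or 4, and 3 without control replicate 3 or 4. With MV 1 rose (Ltf), with 7.17% of genes passing as higher. Without control replicate 2 the MV comparison had 6 members passing, 5 of them lower (24.3% of genes passed as lower over all arrays); that array was the lowest control in 6 genes. The adult MV values of the other members ran from -0.99 for Ngp to -0.40 for Camp and did not pass.

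Adult LPS+MV exceeded MV in 4 members, with 12% of genes passing as higher: Mmp8 by 2.42 ± 0.49 (adjusted p = 0.000598), S100a9 by 2.34 ± 0.54 (adjusted p = 0.00209), S100a8 by 2.05 ± 0.52 (adjusted p = 0.00552) and Mmp9 by 0.94 ± 0.31 (adjusted p = 0.0381). These 4 did not overlap (13.9% of genes). The Mmp9 call ended without any 1 of 5 arrays (adjusted p up to 0.153). Adult LPS+MV against LPS had 0 members passing by limma (7.04% of genes passed in either direction), and Mmp9, with an unadjusted p of 0.004, was lower without overlap (9.37% of genes). The adult LPS by MV interaction had 0 members passing (7.16% of genes), with Ltf at -0.80 ± 0.36 (unadjusted p = 0.0336). Comparisons that share the same controls are not independent of each other.

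Across age, 5 members were higher in adult than in juvenile controls (Ltf, S100a8, S100a9, Mmp8 and Mmp9), with 15.1% of genes passing as higher. In a fit of the control groups alone the count was 3, without S100a9 (adjusted p = 0.0504) and Mmp8 (adjusted p = 0.109). Ltf and Mmp9 did not overlap (14.1% of genes were higher without overlap). Mmp9 differed by 1.31 ± 0.31 (adjusted p = 0.00285). Mmp8 differed by 1.53 ± 0.49 (adjusted p = 0.0232), and this call ended without adult control replicate 3 or 4 or juvenile control replicate 2 (0.94, adjusted p = 0.149 without adult control replicate 4). The same 5 genes were higher in adults after LPS, with 8.85% of genes passing as higher and no overlap (11.1% of genes). Mmp9 differed there by 1.93 ± 0.31 (adjusted p = 8.42e-05) and Mmp8 by 1.97 ± 0.49 (adjusted p = 0.00567). That count was 3 without adult LPS replicate 1 or juvenile LPS replicate 1 or 2.

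After MV, 1 member was higher in adults (Ltf, 8.31% of genes passing as higher) and 2 were lower (Camp and Ngp, 15% of genes passing as lower). After LPS+MV it was again Ltf higher (7.3% of genes) and Camp and Ngp lower (4.94% of genes), and S100a8 and S100a9 were higher without overlap (13.6% of genes). The age by MV interaction had 2 members passing as lower in adults (Camp and Ngp, 4.84% of genes), and the count lay between 1 and 4 with single arrays left out. It was 4 without adult MV replicate 1, adult control replicate 2 or juvenile control replicate 4, where S100a8 and S100a9 passed too. Their values over all arrays were -2.12 ± 0.77 (adjusted p = 0.0937) and -2.38 ± 0.79 (adjusted p = 0.0675). The age by LPS+MV interaction had the same 2 passing (1.25% of genes as lower), and the age by LPS interaction had 0 by limma (3.69% of genes in either direction), and none of the 7 had an unadjusted p under 0.05.

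Ordered by fitted log2 mean over the 8 groups, Ngp and Camp were highest in juvenile LPS+MV, then juvenile MV, then adult controls, and lowest in adult MV. For Ngp the first group was separated from the next without overlap, and no other neighbours in either order were. S100a8, S100a9 and Mmp8 were highest in adult LPS, then adult LPS+MV, then juvenile LPS+MV, and lowest in juvenile controls. In S100a8 and S100a9 adult LPS+MV was separated from juvenile LPS+MV, in S100a9 juvenile LPS+MV was also separated from juvenile LPS, and in Mmp8 no neighbours were. Mmp9 was highest in adult LPS, separated from adult LPS+MV, and lowest in juvenile MV, by both probe sets. By the brighter one there were further gaps below juvenile LPS+MV and below juvenile LPS, and by the other there were none. Ltf put the 4 adult groups first and the 4 juvenile groups last, and adult controls were separated from juvenile LPS+MV, and juvenile LPS+MV from juvenile LPS. Adult LPS+MV replicate 1, at 240.4, lay inside the range of juvenile LPS+MV.

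Within groups, S100a8 and S100a9 followed each other most closely and Ltf followed no other member. Over the deviations of the 30 arrays from their group means, which share array, scaling and group means, S100a8 and S100a9 correlated at r = 0.987 (rho = 0.975), Mmp8 and Mmp9 at 0.894 (0.697), Ngp and Mmp8 at 0.863 (0.733) and Camp and Ngp at 0.770 (0.778). Ltf correlated with the other 6 at between -0.05 and 0.224. Over the values themselves, S100a8 and S100a9 correlated at 0.993 and Camp and Ngp at 0.889, while Ngp and S100a8 correlated at 0.442 and Camp and Mmp9 at 0.029.

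**Figure D3:**
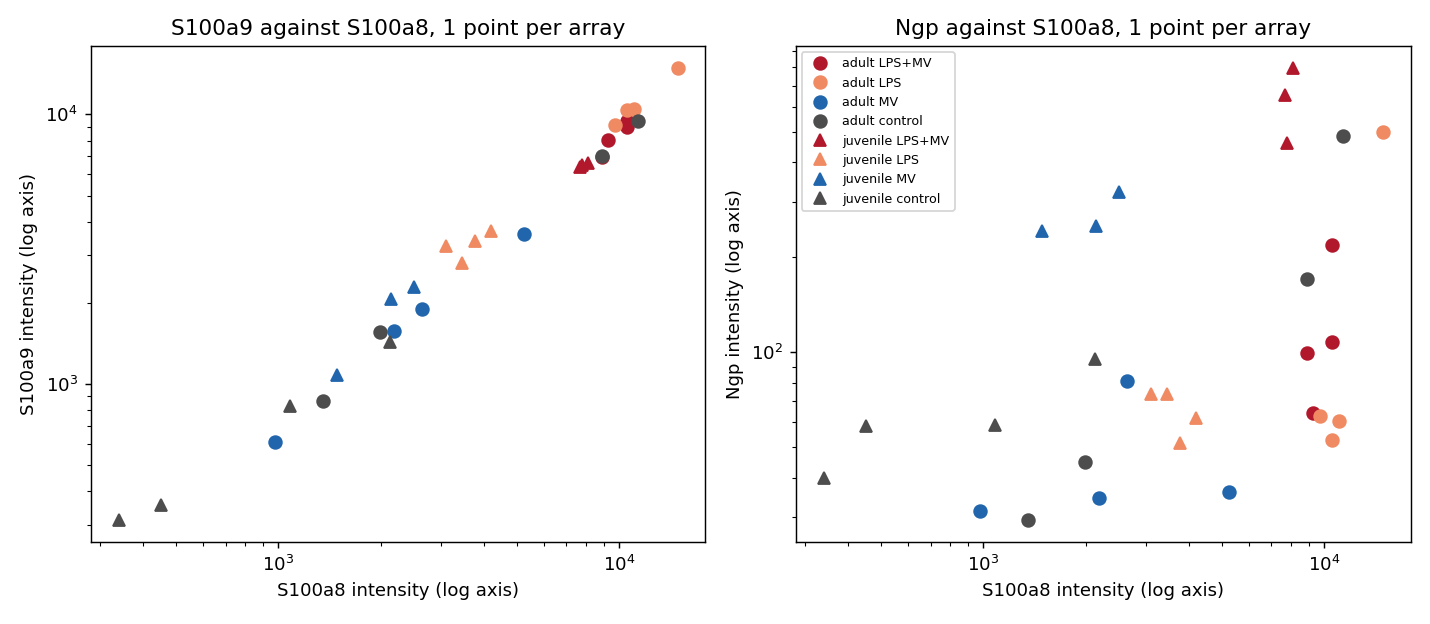
Intensity of S100a9 (left) and Ngp (right) against that of S100a8 on the same array, both axes logarithmic, 1 point for each of the 30 arrays. S100a9 follows S100a8 along 1 line over all groups, while for Ngp the juvenile MV and LPS+MV arrays lie above the juvenile LPS and control arrays.

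The genes most like each member, by Pearson r of the log2 value over the 30 arrays, are given for each member. For Mmp8 they were Cxcr2 (r = 0.935), a chemokine receptor of neutrophils, Cd177 (0.934), a neutrophil surface protein, and Trem3 (0.932). For S100a9 they were the lectin receptor Clec4d (0.932), the chemokine receptor Ccr1 (0.921) and Trem3 (0.914), and for S100a8 they were Clec4d (0.918), Ccr1 (0.901) and Gsr (0.897), glutathione reductase. For Mmp9 they were Tpd52 (0.953), the G-CSF receptor Csf3r (0.943) and the glucose transporter Slc2a3 (0.939). Ltf was most like Cxcl17 (0.894), a chemokine of mucosal epithelium, A2ml1 (0.892) and Cytl1 (0.878).

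For Ngp and Camp the nearest genes were less close. Ngp was most like Adgrg3 (0.793), Kdm6b (0.684) and Mapk6 (0.677), and Camp most like Trio (0.694), Adamts8 (0.684) and Sema5a (0.678). Over deviations from the group means, Ngp was most like Cd177 (0.936), Itgam (0.867), the alpha chain of the integrin Mac-1, and Alox5ap (0.861). Camp was then most like Nrgn (0.763), Rasgrp2 (0.760) and Prtn3 (0.753), the azurophil protease proteinase 3. By rank these were less close for Nrgn (rho = 0.544) and Prtn3 (0.56) than for Rasgrp2 (0.743).

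Most other neutrophil surface genes rose with LPS at both ages. Over all genes tested, 10.8% passed as higher and 20.5% as lower with juvenile LPS+MV, 9.58% and 13.3% with juvenile LPS, and 4.41% and 6.45% with juvenile MV. In adults the shares were 14.8% and 27.3% with LPS+MV, 12.9% and 23% with LPS, and 7.17% and 24.3% with MV. The counts of each gene list stand against these shares. Of 12 further surface and cytosol genes tested, 12 rose and 0 fell in juvenile LPS+MV lungs (median 1.24), 8 and 0 in juvenile LPS lungs (0.87), and 1 and 0 in juvenile MV lungs (0.23), against medians of all genes of -0.052, -0.029 and -0.021. The 1 that rose with MV was Clec4d (1.63 ± 0.38, adjusted p = 0.00684). In adults 9 rose and 0 fell with LPS+MV (1.21), 10 and 0 with LPS (1.25), and 0 rose and 2 fell with MV (-0.088), against -0.05, -0.044 and -0.064 over all genes. Those that fell were Csf3r (-0.90 ± 0.34, adjusted p = 0.0426) and Itgam (-0.67 ± 0.19, adjusted p = 0.00912). Clec4e, a receptor for mycobacterial lipid, rose by 3.52 ± 0.27 with LPS+MV and 2.90 ± 0.25 with LPS in juveniles. Cxcr2 rose by 1.03 ± 0.33 with juvenile LPS+MV and 0.95 ± 0.31 with adult LPS.

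Of 12 other specific and gelatinase granule genes tested, 9 rose and 0 fell in juvenile LPS+MV lungs (median 0.69), 8 and 0 with LPS (0.72), and 0 rose and 1 fell with MV (-0.015). The 1 that fell was Hp, haptoglobin (-0.28 ± 0.06, adjusted p = 0.00477). In juvenile MV lungs, where Camp and Ngp rose, Lcn2 (lipocalin 2) averaged 1011 ± 54.2 against 1037 ± 260.0 in controls (SD, n = 3 and 4), which did not pass (adjusted p = 0.99). Cd177 averaged 18.3 ± 2.50 and 18.1 ± 3.43 in the same groups, below the array medians, so nothing can be read from it there. In adults 6 rose and 0 fell with LPS+MV (median 0.32), 7 and 0 with LPS (0.48), and 2 rose and 3 fell with MV (-0.005). Lcn2, which lung epithelium also makes, was among the risers with MV (0.71 ± 0.21, adjusted p = 0.0103) and Pglyrp1, a peptidoglycan-binding granule protein, among those that fell (-0.75 ± 0.25, adjusted p = 0.0246).

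The azurophil enzymes that mark the earliest granules were at or near background. Mpo read 12.3 to 22.6, Elane 13.7 to 19.7 and Ctsg 10.2 to 16.3 over the 30 arrays, and none exceeded the median of its own array on at least 3 arrays, so none was tested. The azurophil list also held the protease inhibitors Slpi and Serpinb1a, which are not granule enzymes. Of its 6 genes tested, 3 rose and 2 fell with juvenile LPS+MV, 3 rose and 1 fell with juvenile LPS, and 0 rose and 1 fell with juvenile MV. In adults 3 rose and 2 fell with LPS+MV, 3 and 1 with LPS, and 0 and 2 with MV, where 24.3% of all genes passed as lower. The median differences of the list were 0.33, 0.27 and 0.066 with juvenile LPS+MV, LPS and MV, and 0.20, 0.24 and -0.17 in adults. The risers were the same 3 in each LPS comparison, Ctsc, Srgn and Slpi, which other lung cells also express. Prtn3, the azurophil protease, passed as higher with no treatment. Its value was 0.08 ± 0.12 with juvenile LPS+MV (adjusted p = 0.659), and it passed as lower with adult LPS+MV (-0.30 ± 0.11, adjusted p = 0.0336).

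Transcription factors that act on granule genes in maturing neutrophils included 1, Cebpd, that rose in every treatment at both ages. Of 5 tested, 4 rose and 1 fell with juvenile LPS+MV, 2 and 1 with LPS and 1 and 0 with MV, and in adults 2 and 1 with LPS+MV, 2 and 1 with LPS and 1 and 2 with MV. The median differences of the list were 0.72, 0.46 and 0.094 with juvenile LPS+MV, LPS and MV, and 0.26, 0.15 and 0.041 in adults. Cebpd, a C/EBP family member that inflammation induces in many cell types, rose by 2.76 ± 0.26, 1.61 ± 0.24 and 1.26 ± 0.26 with juvenile LPS+MV, LPS and MV, and by 2.83 ± 0.24, 2.35 ± 0.24 and 1.28 ± 0.24 in adults. Cebpa was lower in both LPS groups at both ages and in adult MV lungs (-0.57 ± 0.11). Gfi1 was at or near background, and Cebpe, the factor most tied to specific granules, was not analysed here.

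The signals that draw neutrophils rose with LPS in at least 4 of 7 cases at each age. Of these 7 chemoattractant and G-CSF genes, 5 rose and 1 fell with juvenile LPS+MV, 4 and 0 with LPS, and 0 and 1 with MV. In adults 5 rose and 1 fell with LPS+MV, 5 and 0 with LPS, and 2 and 1 with MV. The median differences of the list were 3.61, 4.44 and 0.009 with juvenile LPS+MV, LPS and MV, and 4.49, 4.74 and 0.12 in adults. Csf3, which encodes G-CSF, the hormone that releases neutrophils from marrow, rose by 1.47 ± 0.20 with juvenile LPS+MV and by 1.21 ± 0.20 against juvenile LPS, whose own value of 0.27 ± 0.19 did not pass (adjusted p = 0.336). In juvenile MV lungs Csf3 was at -0.03 ± 0.20 and Cxcl1 at 0.41 ± 0.21 relative to controls, and neither passed (adjusted p = 0.95 and 0.219).

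Of 7 genes for calprotectin receptors and their partners, 4 rose and 0 fell with juvenile LPS+MV, 2 and 0 with LPS, and 2 and 0 with MV, and in adults 4 and 1 with LPS+MV, 4 and 1 with LPS, and 2 and 1 with MV. The median was 0.52, 0.084 and 0.059 with juvenile LPS+MV, LPS and MV, and 0.41, 0.38 and 0.10 in adults. Cd14 rose by 4.63 ± 0.11 with juvenile LPS and 3.98 ± 0.11 with adult LPS. Tlr4 rose with MV at both ages, by 0.55 ± 0.11 in juveniles and 0.45 ± 0.11 in adults. Ager, which encodes RAGE and marks alveolar type 1 cells, was the gene that fell in adults, at -0.63 ± 0.08 with LPS+MV, -0.35 ± 0.08 with LPS and -0.60 ± 0.08 with MV.

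Of 8 other S100 genes, 0 rose and 1 fell with juvenile LPS+MV, 0 and 1 with LPS and 0 and 3 with MV, and in adults 1 and 2 with LPS+MV, 1 and 0 with LPS and 1 and 5 with MV, where 6.45% of all genes passed as lower with juvenile MV and 24.3% with adult MV. The S100 median differences were -0.072, -0.004 and -0.15 with juvenile LPS+MV, LPS and MV, and -0.10, 0.024 and -0.29 in adults. S100a4 was higher in adult than in juvenile controls (1.48 ± 0.27) and fell with adult MV (-0.92 ± 0.27). Of 6 inhibitors of the proteases, 2 rose and 0 fell with juvenile LPS+MV, 1 and 0 with LPS and 0 and 0 with MV, and in adults 1 and 2 with LPS+MV, 1 and 2 with LPS and 0 and 0 with MV. The inhibitors had medians of 0.003, -0.044 and 0.04 with juvenile LPS+MV, LPS and MV, and -0.061, -0.068 and 0.006 in adults. Timp1, the inhibitor that binds Mmp9, rose by 2.43 ± 0.16 with juvenile LPS+MV, 2.96 ± 0.15 with juvenile LPS, 1.90 ± 0.15 with adult LPS+MV and 2.24 ± 0.15 with adult LPS.

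Markers of other cells moved in some of the same comparisons. Red cell and platelet genes were listed as markers of blood left in the lung. They fell in 6 of 6 cases in adult LPS+MV and in adult MV lungs and in 0 of 6 in adult LPS lungs. Their summed intensity was 1259 to 1588 in LPS+MV, 1823 to 2419 in LPS, 953 to 1261 in MV and 1965 to 3701 in control adults. In juveniles 0, 0 and 1 of the 6 fell with LPS+MV, LPS and MV, and the sums were 2883 to 3561, 2682 to 4262, 2141 to 3544 and 3377 to 5109 in LPS+MV, LPS, MV and control lungs. The medians were -0.34, -0.17 and -0.17 with juvenile LPS+MV, LPS and MV, and -0.72, -0.26 and -1.04 in adults. Between controls the 2 kinds of gene went opposite ways, and all 6 passed. The red cell genes Alas2 (-1.35) and Slc4a1 (-1.68) were lower in adults. The platelet genes Pf4 (0.75), Itga2b (0.52), Gp1bb (1.09) and Gp9 (0.72) were higher, so the sums do not compare blood content between ages. The part of blood content in the member differences was not tested.

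Of 10 monocyte and macrophage genes, 1 rose and 0 fell with juvenile LPS+MV, 3 and 1 with LPS and 0 and 0 with MV, and in adults 1 and 3 with each of LPS+MV, LPS and MV. The falls of 3 in 10 stand against 27.3%, 23% and 24.3% of all genes passing as lower in those adult comparisons. Their median differences were 0.10, 0.11 and 0.061 with juvenile LPS+MV, LPS and MV, and -0.083, -0.15 and -0.14 in adults. Ccr2, the receptor of blood monocytes, fell by 1.24 in adult LPS+MV and in adult MV lungs. In controls, 6 of these 10, 8 of the 12 neutrophil surface genes and 5 of 8 lymphocyte genes were higher in adults than in juveniles, beside the 5 members that were and 15.1% of all genes. The summed monocyte and macrophage level was 7644 to 9487 in adult and 4708 to 7287 in juvenile controls. Of the 8 lymphocyte genes, 0 changed with any juvenile treatment, and in adults 0 rose and 3 fell with LPS+MV, 0 and 1 with LPS and 1 and 3 with MV. Lymphocyte medians were 0.10, 0.18 and 0.20 with juvenile LPS+MV, LPS and MV, and -0.10, -0.043 and -0.10 in adults. Of 9 epithelial and endothelial genes, 0 rose and 0, 1 and 0 fell with juvenile LPS+MV, LPS and MV, and 5, 4 and 4 fell with adult LPS+MV, LPS and MV, against 27.3%, 23% and 24.3% of all genes. The list's median differences were -0.066, -0.068 and -0.018 with juvenile LPS+MV, LPS and MV, and -0.25, -0.18 and -0.15 in adults. The part of these other cell types in the member differences was not tested.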

How the data were processed

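Total lung RNA of each mouse was labelled and hybridised to 1 Affymetrix array. The authors deposited probe set intensities on a linear scale (4.50 to 25073). MAS5 is the tool in the submitters' processing notes, and its settings are not given in the sources used here. Probe sets were named from the platform annotation: 34945 had 1 symbol, 932 several and 9160 none listed. Symbols were checked through gene IDs in RefSeq (34741 matched, 0 changed).

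Log2(intensity + 32) was fitted with limma 3.58.1 (R 4.3.3, lmFit and eBayes with trend) as 8 group means over all 30 arrays, after a filter that asked a probe set to exceed the array median in 3 or more arrays (24825 kept). A gene took the kept probe set with the highest mean, and 19 comparisons were each adjusted over 13089 genes. With 200 simulated changed genes, 99.0% of log2 changes of 1 were recovered for adult LPS and 100.0% for juvenile MV. Of smaller log2 changes, 88.2% and 83.3% were recovered, and 11 of 198 and 6 of 189 calls were false. The members had larger SE than most genes, at 0.20 to 0.54 for adult MV against a median of 0.085. Recovery at the SE of the members was not tested. The members and 12 gene lists were chosen with earlier results of these data known. Every member is named, and 3 similar genes each by correlation. Replicate numbers were not taken to pair animals, since the labels do not say what they mark. Same-numbered arrays of different groups correlated at a mean r of 0.0458 in their deviations, against -0.0153 for different-numbered ones. Same-numbered arrays were thus slightly more alike, and whether they share a batch was not tested. Promoters came from RefSeq (GRCm38.p6), where 6 of the 7 genes had an entry. Alternatives were array weights, a replicate block, an Xist term, quantile normalization, the compared groups alone, averaging probe sets, dropping the filter or the trend, a pseudocount of 1 and leaving out each array. Figures used matplotlib 3.10.9.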

Additional observations from a re-analysis of the deposited data

Results flagged for a closer look

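The age by treatment terms flagged Camp and Ngp, since the difference between their adult and juvenile effects of MV and of LPS+MV passed when tested itself. The Ngp calls were fragile. They ended without any 1 of 5 arrays for MV and of 10 arrays for LPS+MV, and with the Xist pattern as a term. In adults high Xist went with ventilation, so an age difference tied to Xist is hard to separate from one tied to ventilation. The adult minus juvenile difference of log2 fold changes was -1.49 for Camp and -2.68 for Ngp with MV, and -1.74 for Camp and -2.85 for Ngp with LPS+MV.

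Single arrays far from the other 3 of their group, by Dixon's criterion for 4 samples, were found in 6 of 48 combinations of probe set and group, where chance gives about 1 in 20. Ngp read 499.5 in adult LPS replicate 1 and 81.0 in adult MV replicate 3. Mmp8 read 1798 in adult LPS replicate 1. Ltf read 240.4 in adult LPS+MV replicate 1 and 352 in adult MV replicate 1, both below the rest of their groups, and 60.6 in juvenile control replicate 2.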

How the results depend on the processing

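Of 450 values of members that passed, taken over all settings other than leaving out an array, 428 stayed past the threshold in the same direction and 22 did not. With single arrays left out, 325 of 400 stayed and 75 did not, and none of the called values changed sign. The number passing among the 101 values followed was 50, and 49 with quantile normalization, 49 with a pseudocount of 1, 48 without the filter, 51 with the mean over probe sets, 50 without trend, 60 with array weights, 55 with the replicate block, 42 with the Xist term and 52 with the compared groups alone. The values followed were picked by the reported fit: calls, larger differences, and Camp and Ngp in each treatment against controls. Calls gained among values not followed are not counted in these totals. The Xist term raised the median SE of adult MV to 0.111, against 0.085 without it.

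With array weights the count of members passing was 7 for adult MV (1 in the reported fit), 1 for adult LPS+MV (2), 4 for juvenile MV (2), 4 for age by MV (2) and 4 for age by LPS+MV (2). For adult MV the signs were those of the reported fit, with Ltf higher and the other members lower. With the Xist term it was 0 for adult MV, 1 for adult LPS+MV, 3 for juvenile LPS+MV against MV (5), 1 for age by MV and 1 for age by LPS+MV. With the compared groups alone it was 0 for adult LPS+MV, 4 for juvenile LPS (2), 7 for juvenile LPS+MV against LPS (3), 3 for adult against juvenile controls (5) and 1 for age by LPS+MV. With a pseudocount of 1 it was 1 for age by LPS+MV, without the filter 1 for juvenile MV, and with the mean over probe sets 2 for adult MV. With the replicate block it was 4 for age by MV, and the block ended no call. Of 30 arrays, 11 correlated best with arrays of their own number. No chance level was computed for that count, so it does not decide whether the numbers pair animals. The cause of these changes was not tested.

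With arrays left out singly, the count ran from 0 to 6 for adult MV, 2 to 4 for adult LPS, 0 to 3 for adult LPS+MV, 0 to 1 for adult LPS+MV against LPS, 3 to 4 for adult LPS+MV against MV, 1 to 4 for juvenile MV, 2 to 2 for juvenile LPS+MV against LPS (3 over all arrays), 1 to 5 for juvenile LPS+MV against MV, 4 to 5 for controls by age, 3 to 5 for LPS by age, 1 to 4 for age by MV and 1 to 3 for age by LPS+MV. Signs changed only for values that had not passed. Ngp in adult LPS+MV was 0.11 with a pseudocount of 1 and 0.29 with the Xist term, and Ngp in juvenile LPS was -0.053 with the Xist term. With single arrays left out, Ngp ran from -0.72 to 0.51 in adult LPS, -0.47 to 0.56 in adult LPS+MV, -0.067 to 0.21 in juvenile LPS and -0.10 to 0.79 for LPS by age, Camp from -0.38 to 0.046 in adult LPS, -0.37 to 0.052 in adult LPS+MV and -0.013 to 0.22 in juvenile LPS, and S100a9 from -0.013 to 1.12 for the adult LPS by MV interaction. Dim readings of Camp, close to the array median in several groups, limit its precision.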
